A study of Homo sapiens with 4 samples.

Results

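The genes described here are 44 members of the NF-kappaB pathway and its chemokine and cytokine outputs, taken by symbol from a list of names and found among 16878 genes in the expression tables. They comprise the DNA-binding subunits, the inhibitors, the activating kinases, the adaptors around the receptors, and the chemokines, cytokines, receptors and other transcripts that the pathway is known to induce. The RNA came from PANC-1, a human line derived from a pancreatic carcinoma and long established in culture, and was sequenced as bulk RNA. The 4 libraries fall into 2 Control libraries and 2 libraries of cells that received small interfering RNA (siRNA) against SIRT1, here siSIRT1, and RNA was taken after 48 h in both groups. What the Control cells received is not given in the labels, and the study lists 1 siRNA sequence for SIRT1. The labels do not say that libraries of a group came from separate cultures, so the p-values below measure the spread between these libraries, which may be technical.

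NF-kappaB is a family of dimeric transcription factors that inhibitor proteins (IkappaB) hold in the cytoplasm. Signals from TNF, IL-1 and Toll-like receptors pass through adaptors and ubiquitin ligases to the IkappaB kinase complex, which marks the inhibitors for destruction, and the freed dimers enter the nucleus and bind kappaB sites. Several of the genes they switch on encode the inhibitors themselves, which closes the loop. SIRT1, an NAD-dependent deacetylase, is known to remove acetyl groups from the RELA subunit, so the comparison asks how transcripts of this pathway stood once SIRT1 was lowered. Protein amounts, acetylation and nuclear entry were not measured.

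Each value is in FPKM, fragments scaled to transcript length and to the total of the library, so that levels of different genes can be set side by side per length. Differences are log2 fold changes, siSIRT1 minus Control, of FPKM + 1. Adding 1 makes the change of low genes look smaller than it was. A gene was tested with limma if its mean over the 4 libraries reached 1 FPKM, and was called changed at an adjusted p under 0.05 (Benjamini-Hochberg over all genes tested). The targeted gene, SIRT1, stood at 10.46 and 10.25 FPKM in Control, compared with 1.80 and 2.05 FPKM in siSIRT1, which is 18.6% of the Control mean (log2 fold change -1.96, limma adjusted p = 1.33e-05). Estimated depth was similar, between 8700000 and 9110000 reads per library. Calls were frequent across the transcriptome: 4521 of 12191 genes tested, or 37.1%, passed the threshold, with 24.0% of genes called higher and 13.1% called lower. The share of rises among all calls was 64.8%, and it was 49.6% when the libraries were scaled by the median of ratios. That scaling moved the median log2 fold change of all genes from 0.07 to 0.00.

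The siRNA is printed first because any 1 siRNA can also act through its seed, the stretch of the guide strand that pairs with 3' UTRs. Its sense strand follows, 5' to 3', with the bases that lie opposite guide positions 2 to 8 in capitals. It matched the SIRT1 transcript at 1 place.

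siSIRT1 sense strand: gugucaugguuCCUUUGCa

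The same heptamer was found in the 3' UTR of 6 of the 37 tested members (16.2%), against 15.6% of the 11930 tested genes that have a 3' UTR in the annotation. These 6 members were BIRC3, IL32, LIF, TNFRSF21, IL6ST and SOD2. Of these, BIRC3, IL32 and SOD2 rose, LIF and TNFRSF21 fell, and IL6ST was not called. The part of the seed in any of these changes was not tested.

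The second set of sequences shows where the pathway's own factor could bind. RefSeq promoter windows (GRCh38.p14, 250 bases before to 50 after the annotated start) were searched on both strands for the decameric kappaB consensus, and overlapping matches were counted separately. A match lay in 11.3% of the 35116 windows, and 17.7% of the 9984 tested genes with a window had at least 1 window with a match. Windows were given for 34 members, and 18 of them held a match, 33 matches in all. Among tested members with a window, 14 of 27 (51.9%) held a match, and 8 of these 14 (57.1%) were called, 6 higher and 2 lower. Of the 23 tested members with no match or no window, 16 (69.6%) were called, 8 higher and 8 lower. The share of all genes called was 37.1%. The sites below belong to members whose results are described in the sections that follow, and include the 3 neighbouring CXCL genes to show that they carry the same decamer. Each is written 5' to 3' on the strand of its gene, with the matching bases in capitals. In BIRC3, TNFAIP3 and NFKBIA the consensus reads on the opposite strand. A match is a description of letters and not evidence of binding.

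NFKB2 (chr10:102395674-102395703, plus strand): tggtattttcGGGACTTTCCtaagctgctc
NFKBIA (chr14:35404811-35404840, minus strand): tgactggcttGGAAATTCCCcgagcctgac
NFKBIZ (chr3:101827757-101827786, plus strand): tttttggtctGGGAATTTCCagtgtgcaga
TNFAIP3 (chr6:137867182-137867211, plus strand): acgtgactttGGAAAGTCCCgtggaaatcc
TNIP1 (chr5:151081057-151081086, minus strand): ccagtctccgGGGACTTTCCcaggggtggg
BIRC3 (chr11:102317275-102317304, plus strand): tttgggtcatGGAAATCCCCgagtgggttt
CXCL1 (chr4:73869304-73869333, plus strand): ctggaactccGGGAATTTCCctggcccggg
CXCL2 (chr4:74099254-74099283, minus strand): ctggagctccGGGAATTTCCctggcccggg
CXCL3 (chr4:74038749-74038778, minus strand): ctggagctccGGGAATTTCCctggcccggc
IL32 (chr16:3065294-3065323, plus strand): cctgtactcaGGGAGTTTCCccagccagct

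Members changed in both directions. Of the 44 members, 37 passed the filter on low values and 24 of these (64.9%) were called, 14 higher and 10 lower, beside 37.1% of all genes tested. The share only describes genes that passed the filter, on a list chosen with earlier results of these data known. It is not a test of the pathway. CCL2 rose most of the tested members, 2.62-fold. Among tested members, the ratio of mean FPKM fell most in CXCL8 (to 32.7% of Control), NFKBIZ (34.0%) and TNFRSF21 (38.7%). CXCL8 passed the filter only through its Control libraries, with about 7 and 9 reads in siSIRT1. On log2(FPKM + 1) TNFRSF21 fell most. At the study's own thresholds, a fold above 1.2 with an unadjusted p under 0.001, 18 of the 37 tested members passed, 8 higher and 10 lower. Of all 12191 genes tested, 2207 (18.1%) passed. Here the fold was on log2(FPKM + 1) and the p came from limma, so these are not the study's own counts. A call together with a change past 1.5-fold was reached by 12 of the 37 tested members, 4 higher and 8 lower. Of all 12191 genes tested, 1320 (10.8%) reached it. The 2 groups did not overlap in 29 of the 37 tested members, and in 69.0% of all genes tested.

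The falls were larger than the rises. The median log2 fold change was 0.41 over the members called higher and -0.78 over those called lower. Over all 37 tested members the median was 0.10, near the 0.07 of all genes, whereas the median absolute change was 0.39 against 0.21. In bulk RNA, a change in the share of cells that express a gene and a change in RNA per cell cannot be told apart. All 10 falls kept their call in each of 12 alternative settings, whereas 6 of 14 rises did. Those 6 were TNIP1, BIRC3, CXCL16, CCL2, IL32 and SOD2. Under the 4 alternative scalings, 11 of the 14 rises kept their call. Median-of-ratios, upper-quartile and equal-sum scaling divide siSIRT1 by larger factors than Control, for the median of ratios 1.024 and 1.043 against 0.967 and 0.978. They therefore lower every change, so falls could only grow and rises only shrink under them. The falls also include CXCL8, which passed the filter only through its Control libraries.

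**Figure D1:**
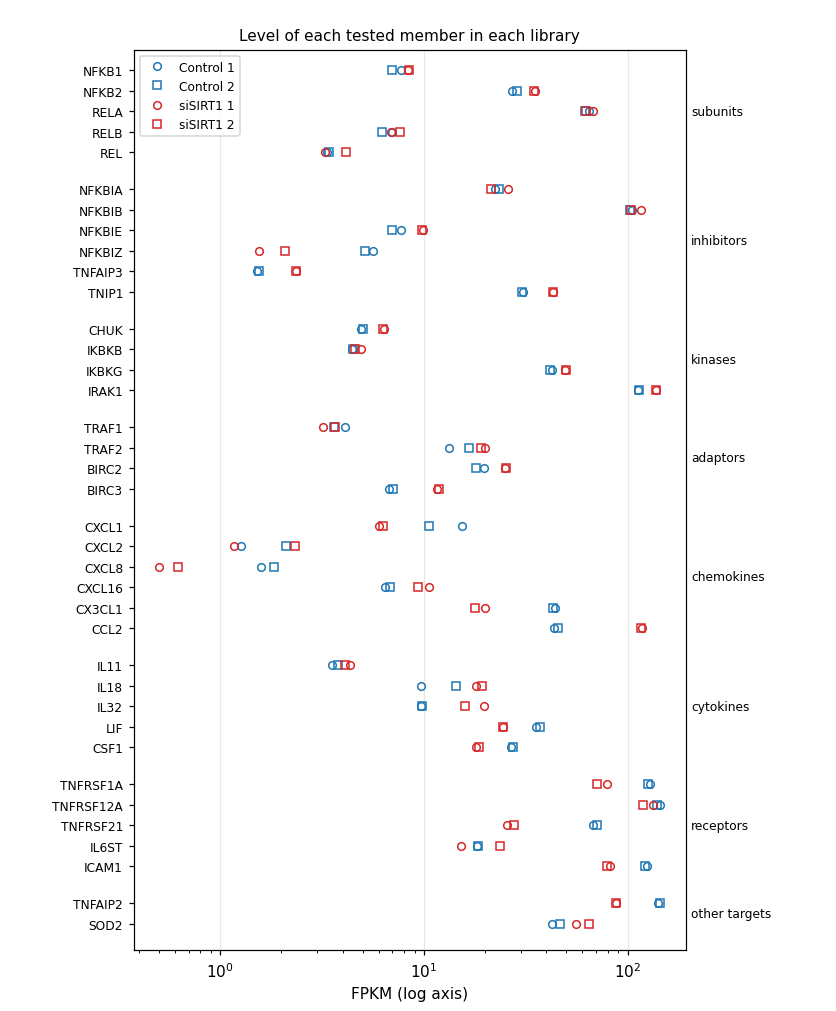
FPKM of the 37 tested members on a log axis, 1 row per member grouped by role, with Control libraries in blue and siSIRT1 libraries in red (circle, replicate 1; square, replicate 2). TNFRSF12A, TNFAIP2, TNFRSF1A, ICAM1, IRAK1 and NFKBIB lie above 100 FPKM in both Control libraries. CXCL2 and TNFAIP3 lie between 1.17 and 2.37 FPKM, and CXCL8 lies at 0.50 and 0.62 FPKM in siSIRT1. The pairs of colours separate clearly for CCL2, CX3CL1, TNFRSF21 and NFKBIZ.

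**Figure D2:**
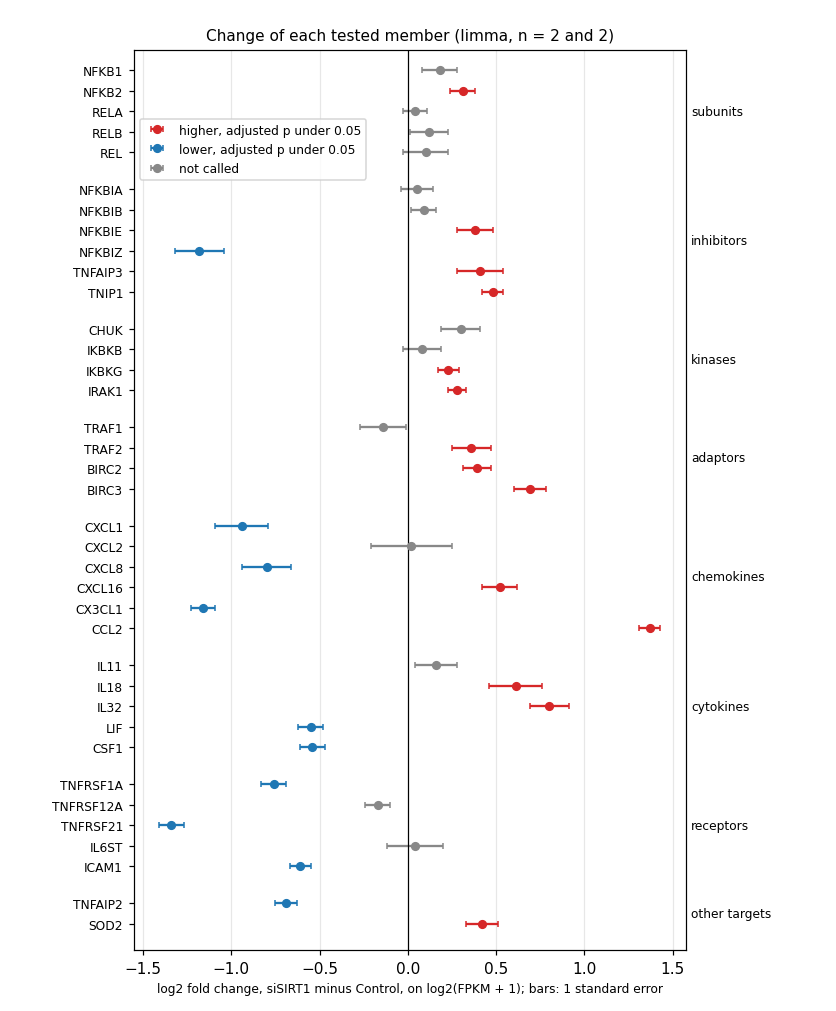
Log2 fold change of the 37 tested members, siSIRT1 minus Control on log2(FPKM + 1), with bars of 1 standard error from limma (red, called higher; blue, called lower; grey, not called). Changes run from -1.34 in TNFRSF21 to 1.37 in CCL2. The subunits lie between 0.04 in RELA and 0.31 in NFKB2, the only subunit called. The called receptors all lie to the left of 0.

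The subunits moved little. RELA, the main activating subunit and the SIRT1 substrate, was the most abundant, with 64.87 and 61.48 FPKM in the Control pair, against 67.62 and 62.71 FPKM in siSIRT1. The groups overlapped, and its log2 fold change of 0.04 (SE 0.07, limma adjusted p = 0.640) turned negative under each of the 4 alternative scalings. NFKB2, which encodes the p100 precursor of the noncanonical subunit p52, rose from 27.23 and 28.63 FPKM to 35.10 and 34.62 FPKM, with both siSIRT1 libraries above both Control libraries. Its log2 fold change was 0.31 (SE 0.07, limma adjusted p = 0.00684), and the adjusted p was 0.0906 without Control replicate 1.

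The other subunits were not called. NFKB1, the source of p105 and p50, stood at 7.69 and 6.99 FPKM in Control, against 8.37 and 8.45 FPKM in siSIRT1, without overlap (log2 fold change 0.18, limma adjusted p = 0.204). RELB, the partner of p52, stood at 6.98 and 6.24 against 6.87 and 7.65 FPKM, and the groups overlapped. REL, known mainly from lymphoid cells, was lowest at 3.34 and 3.41 against 3.27 and 4.17 FPKM, again with overlap. Of the 50-base stretches of the REL transcript, 51.3% also occur in transcripts of other annotated genes, so its level is uncertain.

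Among the inhibitors, 3 rose and 1 fell. NFKBIA, the classical IkappaB and itself a target of the pathway, stood at 22.41 and 23.28 FPKM in Control. In siSIRT1 it was at 25.95 and 21.45 FPKM, so that the 2 siSIRT1 libraries lay on either side of both Control libraries (log2 fold change 0.05, SE 0.09, limma adjusted p = 0.742). NFKBIB, another IkappaB, was more abundant at 104.88 and 102.32 against 116.58 and 104.20 FPKM, and was not called (limma adjusted p = 0.345). NFKBIE, also an IkappaB, rose from 7.75 and 6.99 to 9.91 and 9.81 FPKM without overlap. Its log2 fold change was 0.38 (SE 0.10, limma adjusted p = 0.0166), which became 0.31 with an adjusted p of 0.153 without Control replicate 2.

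NFKBIZ showed the only fall in this group. It encodes IkappaB-zeta, a nuclear family member that is known to act with p50 as a coactivator of secondary targets as well as an inhibitor (GRCh37 chr3:101546835-101579866). Its level was 5.63 and 5.12 FPKM in Control, compared with 1.56 and 2.09 FPKM in siSIRT1. Both siSIRT1 libraries were far below both Control libraries, at 34.0% of the Control mean (log2 fold change -1.18, SE 0.14, limma adjusted p = 0.000377). NFKBIZ has a kappaB match printed above. TNIP1 and TNFAIP3 also have matches, with decamers that differ from it in their bases, and went the other way.

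TNIP1, which binds the ubiquitin-editing enzyme A20 and restrains signalling to the kinases, rose from 30.78 and 30.47 FPKM to 43.15 and 43.05 FPKM. The libraries of each group nearly coincided, and the log2 fold change was 0.48 (SE 0.06, limma adjusted p = 0.000615). TNFAIP3, which encodes A20 itself, rose from 1.52 and 1.55 to 2.37 and 2.36 FPKM, again with close replicates (log2 fold change 0.41, SE 0.13, limma adjusted p = 0.0351). At this low level its call was less firm: the adjusted p was 0.0625 under median-of-ratios scaling and between 0.0650 and 0.157 whenever 1 library was left out.

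Of the kinases, 2 of 4 were called, both higher, and by small amounts. IRAK1, which relays signals from IL-1 and Toll-like receptors, rose from 113.08 and 114.24 FPKM to 138.55 and 137.85 FPKM. The groups were well separated, with a log2 fold change of 0.28 (SE 0.05, limma adjusted p = 0.00463), and the adjusted p was 0.0854 without Control replicate 1 and 0.0715 without Control replicate 2. IKBKG, the regulatory subunit NEMO of the IkappaB kinase complex, stood at 42.42 and 41.76 FPKM in the Control pair, against 49.29 and 50.10 FPKM in siSIRT1. Its call (log2 fold change 0.23, SE 0.06, limma adjusted p = 0.0155) was lost under each of the 4 scalings, to 0.15 with an adjusted p of 0.115 under the median of ratios, and without the variance trend (0.0630), and also without Control replicate 1 (adjusted p = 0.115) or Control replicate 2 (adjusted p = 0.155). In addition, 53.3% of the 50-base stretches of the IKBKG transcript occur in its pseudogene copy IKBKGP1, so its level is uncertain.

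The catalytic subunits of the complex were not called. CHUK, which encodes IKK-alpha, stood at 4.91 and 5.02 FPKM in Control, against 6.39 and 6.27 FPKM in siSIRT1, without overlap, and narrowly missed the threshold (log2 fold change 0.30, SE 0.11, limma adjusted p = 0.0549). IKBKB, which encodes IKK-beta, was at 4.45 and 4.49 against 4.93 and 4.61 FPKM (log2 fold change 0.08, limma adjusted p = 0.629).

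The adaptor group held 3 rises. BIRC3, which encodes the ubiquitin ligase cIAP2 and is a classical target of the pathway (GRCh37 chr11:102188215-102210134), rose most in it, from 6.78 and 7.02 FPKM to 11.66 and 11.91 FPKM. Both siSIRT1 libraries lay well above Control, at 1.71-fold (log2 fold change 0.69, SE 0.09, limma adjusted p = 0.000686). Its neighbour and paralog BIRC2, which encodes cIAP1, rose from 19.72 and 18.07 to 24.90 and 25.35 FPKM (log2 fold change 0.39, SE 0.08, limma adjusted p = 0.00420), and without Control replicate 2 the adjusted p was 0.0553. The pair shared under 1% of 50-base stretches.

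TRAF2, the adaptor that recruits both ligases to TNF receptors, stood at 13.28 and 16.69 FPKM in Control, compared with 19.92 and 18.99 FPKM in siSIRT1. The groups did not overlap, but the Control libraries differed by more than the siSIRT1 libraries did (log2 fold change 0.36, SE 0.11, limma adjusted p = 0.0276). The TRAF2 call was lost under the 4 scalings (adjusted p = 0.0735 with the median of ratios), with no filter (0.108), without the variance trend (0.0640) and without Control replicate 1 (0.252), siSIRT1 replicate 1 (0.110) or siSIRT1 replicate 2 (0.0647). TRAF1, an inducible relative, was at 4.09 and 3.64 against 3.20 and 3.65 FPKM and was not called (log2 fold change -0.14, limma adjusted p = 0.429).

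The chemokines split into large changes of both signs. Of 9 listed, 6 passed the filter, CCL2 and CXCL16 rose, and CXCL1, CXCL8 and CX3CL1 fell. CCL2, the ligand that draws monocytes through the receptor CCR2 (GRCh37 chr17:32582293-32584227), stood at 43.45 and 45.67 FPKM in the Control pair, against 118.08 and 115.84 FPKM in siSIRT1. The SD of each group (1.57 FPKM for Control, 1.58 FPKM for siSIRT1, n = 2 each) was small beside a difference of 2.62-fold. Its log2 fold change was 1.37 (SE 0.06, limma adjusted p = 2.95e-06), and the adjusted p stayed at or below 0.00267 in the alternatives that used all libraries.

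CX3CL1, also called fractalkine, a membrane-tethered chemokine that acts on CX3CR1 (GRCh37 chr16:57406389-57418956), began at about the same level as CCL2 and went the opposite way. It stood at 43.91 and 42.92 FPKM in Control, against 19.94 and 17.93 FPKM in siSIRT1. With both siSIRT1 libraries far below Control, at 43.6% of its mean, the log2 fold change was -1.16 (SE 0.07, limma adjusted p = 2.05e-05). CXCL16, the other membrane-tethered chemokine, rose from 6.42 and 6.79 FPKM to 10.58 and 9.31 FPKM (log2 fold change 0.52, SE 0.10, limma adjusted p = 0.00492).

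The neutrophil-attracting CXCL genes, which act through CXCR2 and lie together on chromosome 4, were mostly weakly expressed. CXCL1 (GRCh37 chr4:74735110-74737025) was the strongest of them, at 15.32 and 10.61 FPKM in Control, compared with 6.02 and 6.32 FPKM in siSIRT1. Its Control libraries were uneven but both above siSIRT1, and it fell to 47.6% of Control (log2 fold change -0.94, SE 0.15, limma adjusted p = 0.00173). CXCL8, or interleukin-8, fell from 1.59 and 1.84 FPKM to 0.50 and 0.62 FPKM, about 23 and 26 reads against 7 and 9 reads. No overlap was seen, though CXCL8 passed the filter through its Control libraries. The log2 fold change was -0.80 (SE 0.14, limma adjusted p = 0.00297), or -1.46 with a pseudocount of 0.1 in place of 1.

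CXCL2 carries the same kappaB decamer as CXCL1 but was not called. It stood at 1.27 and 2.11 FPKM in the Control pair, against 1.17 and 2.34 FPKM in siSIRT1, about 12, 20, 11 and 22 reads, so the groups overlapped fully (log2 fold change 0.02, SE 0.23, limma adjusted p = 0.957). At this depth only a large difference in CXCL2 could have been detected. Of the CXCL1 transcript, 5.33% of 50-base stretches also occur in CXCL2, so a few reads could have been assigned to either.

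CXCL3, CXCL5 and CCL20 were below the filter. CXCL3 was at 0.24 and 0.39 FPKM in Control, against 0.59 and 0.35 FPKM in siSIRT1, which is at most about 5 reads per library. CXCL5 was at 0.23 and 0.14 FPKM in Control, about 5 and 3 reads, and at 0 in both siSIRT1 libraries, where a count of 0 allows up to 3 reads. CCL20, the ligand of CCR6, was at 1.29 and 1.27 FPKM in Control, compared with 0.59 and 0.29 FPKM in siSIRT1, about 9 and 9 reads against 4 and 2. With no filter on low values the adjusted p was 0.0299 for CCL20 and 0.0460 for CXCL5, on these few reads.

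**Figure D3:**
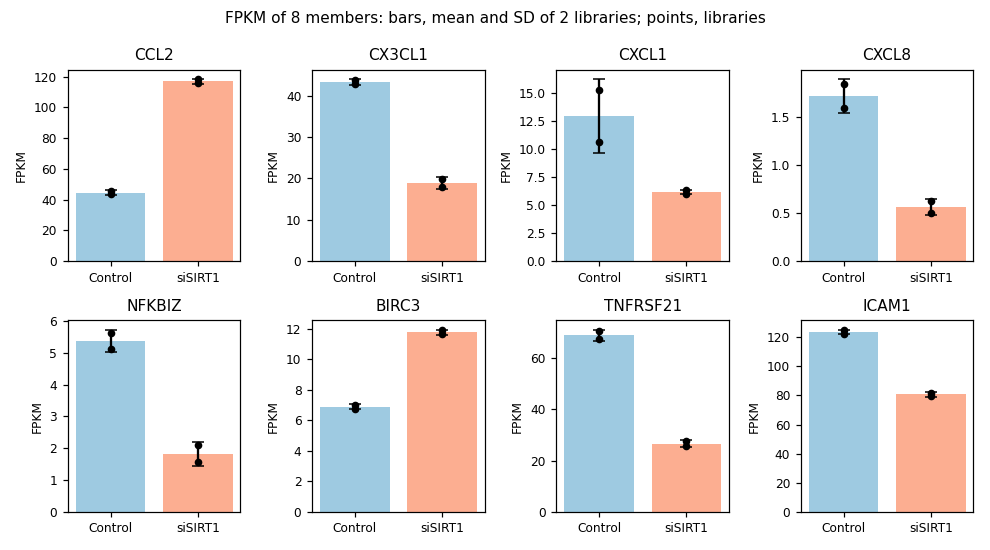
FPKM of 8 members, picked for display after their values were seen, in Control and siSIRT1 (bars, mean; error bars, SD of 2 libraries; points, single libraries; each axis starts at 0). CCL2 and BIRC3 are higher in both siSIRT1 libraries, whereas CX3CL1, CXCL1, CXCL8, NFKBIZ, TNFRSF21 and ICAM1 are lower in both.

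The classical inflammatory cytokines were almost silent in these cells. IL6 was detected only in the first Control library, at 0.12 FPKM or about 1 read, and IL1B was at 0.08 FPKM in each Control library and at 0 in both siSIRT1 libraries. IL1A was at 0 in Control but reached 0.16 and 0.12 FPKM in siSIRT1, about 3 and 2 reads, with an adjusted p of 0.0466 when no filter was applied. For these 3 genes no change could be measured at this depth.

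Of the cytokines that could be tested, 2 rose and 2 fell. IL32, an intracellular and secreted cytokine that induces TNF and other mediators, rose from 9.65 and 9.83 FPKM to 19.64 and 15.84 FPKM. The siSIRT1 libraries differed from each other but both lay above Control, at 1.82-fold (log2 fold change 0.80, SE 0.11, limma adjusted p = 0.000772). IL18, an inflammasome-processed member of the IL-1 family, stood at 9.67 and 14.40 FPKM in the Control pair, against 17.99 and 19.23 FPKM in siSIRT1. The Control libraries of IL18 were uneven, and its call (log2 fold change 0.61, SE 0.15, limma adjusted p = 0.0134) was lost with no filter (0.0969) and without Control replicate 1 (log2 fold change 0.35, adjusted p = 0.0647), siSIRT1 replicate 1 (0.0546) or siSIRT1 replicate 2 (0.0787).

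LIF, a cytokine of the IL-6 family, fell from 35.40 and 37.05 FPKM to 24.36 and 24.35 FPKM, to 67.2% of Control with tight replicates (log2 fold change -0.55, SE 0.07, limma adjusted p = 0.000429). CSF1, the growth factor of macrophages, fell to almost the same extent, from 26.78 and 27.32 FPKM to 17.96 and 18.63 FPKM (log2 fold change -0.54, SE 0.07, limma adjusted p = 0.000644). Neither gene's groups overlapped. IL11, also of the IL-6 family, stood at 3.55 and 3.80 against 4.32 and 4.09 FPKM and was not called (log2 fold change 0.16, limma adjusted p = 0.332).

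The receptor group had 3 falls and no rise. TNFRSF21, a death domain receptor also known as DR6 (GRCh37 chr6:47199268-47277641), fell from 67.35 and 70.51 FPKM to 25.74 and 27.57 FPKM. Replicates lay close together and the groups far apart, with a log2 fold change of -1.34 (SE 0.07, limma adjusted p = 5.77e-06). TNFRSF1A, the main receptor for TNF (GRCh37 chr12:6437923-6451280), fell from 128.70 and 125.40 FPKM to 79.17 and 70.54 FPKM, or to 58.9% of Control (log2 fold change -0.76, SE 0.07, limma adjusted p = 0.000110). ICAM1, the adhesion molecule that leukocyte integrins bind and a standard readout of the pathway (GRCh37 chr19:10381769-10397291), fell from 124.75 and 122.40 FPKM to 81.75 and 79.53 FPKM. Both siSIRT1 libraries of ICAM1 were well below Control, at 65.3% of its mean (log2 fold change -0.61, SE 0.06, limma adjusted p = 0.000123).

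Not called were TNFRSF12A and IL6ST. TNFRSF12A, the receptor Fn14 for TWEAK, stood at 145.06 and 139.29 FPKM in Control, against 133.25 and 119.70 FPKM in siSIRT1, without overlap (log2 fold change -0.17, SE 0.07, limma adjusted p = 0.0817). It passed the threshold under all 4 scalings, with -0.26 and an adjusted p of 0.0344 under the median of ratios, and without siSIRT1 replicate 1 (-0.25, adjusted p = 0.0162). IL6ST, the gp130 chain shared by the receptors of IL-6, IL-11 and LIF, was at 18.22 and 18.44 FPKM in Control but at 15.18 and 23.57 FPKM in siSIRT1. Its siSIRT1 libraries lay on opposite sides of Control (log2 fold change 0.04, SE 0.16, limma adjusted p = 0.856), so leaving out the first gave 0.35 (adjusted p = 0.0159) and leaving out the second gave -0.26 (adjusted p = 0.0420).

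The remaining targets went in opposite directions. TNFAIP2, a TNF-induced gene of membrane protrusions, fell from 140.38 and 144.00 FPKM to 88.06 and 87.35 FPKM, to 61.7% of Control (log2 fold change -0.69, SE 0.06, limma adjusted p = 6.45e-05). SOD2, the mitochondrial superoxide dismutase, rose from 42.63 and 46.87 FPKM to 55.71 and 64.97 FPKM (log2 fold change 0.42, SE 0.09, limma adjusted p = 0.00543). Neither gene's groups overlapped. PTGS2, or cyclooxygenase-2, was at no more than 0.11 FPKM in any library, at most about 4 reads.

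**Figure D4:**
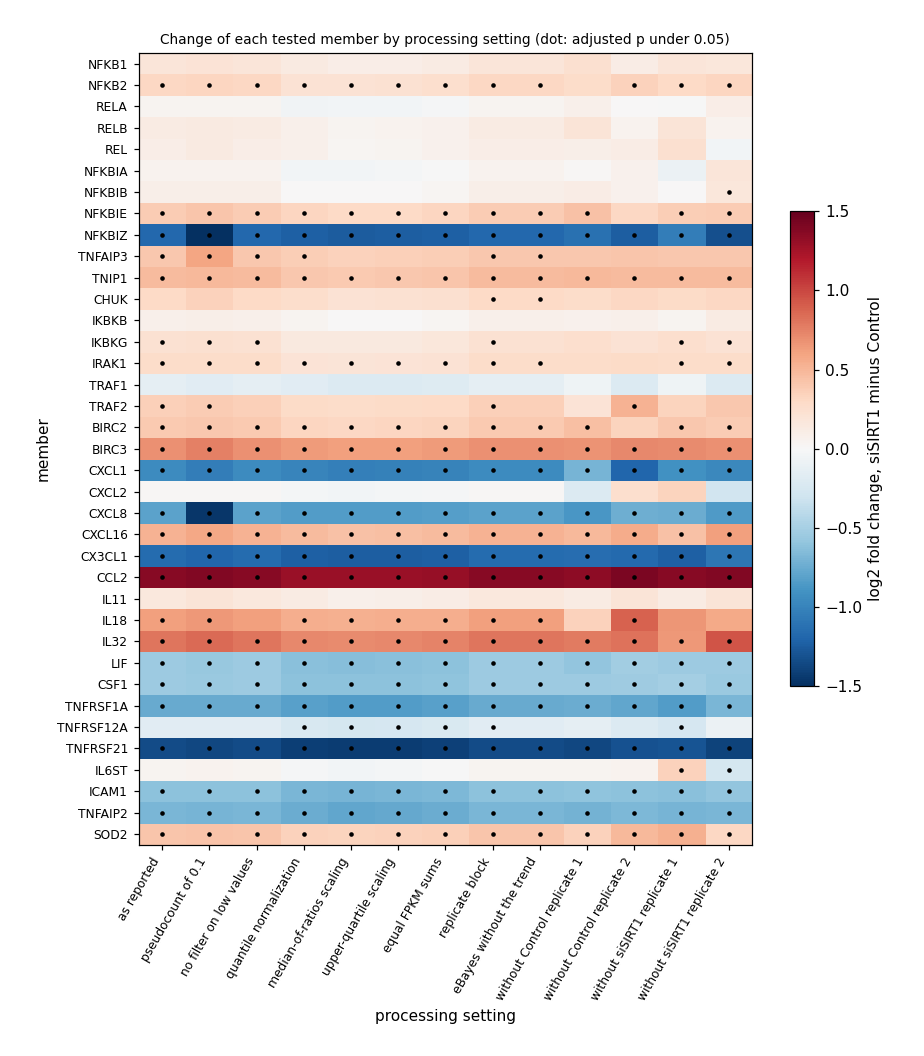
Log2 fold change (colour, siSIRT1 minus Control) of the 37 tested members, in rows, as reported and under 12 alternative settings, in columns, with a dot where the adjusted p was under 0.05. The rows of the 10 falls are blue and dotted throughout, whereas a dot is missing in 1 column for NFKB2, NFKBIE and BIRC2 and in more than 1 for TNFAIP3, IKBKG, IRAK1, TRAF2 and IL18.

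Further pathway genes that are not members were called at about the background rate. Of 36 listed, 32 were tested and 10 were called (31.2%), 6 higher and 4 lower. IKBKE, a noncanonical IkappaB kinase, rose from 1.53 and 1.83 FPKM to 3.68 and 3.51 FPKM (log2 fold change 0.78, limma adjusted p = 0.00207). TNIP2, like TNIP1 a binding partner of A20, rose from 14.82 and 12.61 to 21.76 and 23.29 FPKM (log2 fold change 0.68, limma adjusted p = 0.000833). CARD10, a scaffold that carries receptor signals to the kinases, fell from 26.19 and 26.32 to 17.57 and 16.53 FPKM (log2 fold change -0.60, limma adjusted p = 0.000470). These 3 were well separated between the groups. MYD88, the adaptor of Toll-like and IL-1 receptors, rose by 0.44 on the log2 scale (limma adjusted p = 0.00696, and 0.0707 without Control replicate 2), and NFKBID, a nuclear IkappaB, also by 0.44 (limma adjusted p = 0.0213). The NFKBID call was lost with no filter (0.0796), under the median of ratios (0.0503), and without Control replicate 1, Control replicate 2 or siSIRT1 replicate 1 (up to 0.0865).

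A list of 20 further target genes, 15 of them tested, held 5 calls (33.3%, below the 37.1% of all genes), 1 higher and 4 lower. LTB, a TNF family ligand, fell from 3.72 and 4.95 FPKM to 1.11 and 2.49 FPKM (log2 fold change -0.97, limma adjusted p = 0.0109). TNFSF10, or TRAIL, fell from 2.80 and 2.53 to 1.03 and 1.21 FPKM (log2 fold change -0.79, limma adjusted p = 0.00234). More abundant were the survival gene IER3, with a fall from 202.63 and 188.00 to 122.09 and 113.75 FPKM (log2 fold change -0.72, limma adjusted p = 0.000109), and the urokinase gene PLAU, with a fall from 187.67 and 184.22 to 115.52 and 113.12 FPKM (log2 fold change -0.70, limma adjusted p = 6.07e-05). GADD45B, a stress response gene, rose by 0.33 on the log2 scale (limma adjusted p = 0.0197), a call that was lost in 7 of 12 alternatives, with an adjusted p of 0.0902 with no filter, 0.0866 under the median of ratios and up to 0.192 with 1 library left out (Control replicate 2 or siSIRT1 replicate 1 ended it). The LTB call was lost with no filter (0.0887). In 13 of the 15 tested genes the groups did not overlap, where 69.0% of all genes did not.

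Of the receptors and signalling genes downstream of the cytokine members, 11 of 21 listed were tested and 5 were called (45.5%, against 37.1% of all genes), 1 higher and 4 lower, among them the member ICAM1. LIFR, the receptor chain that LIF uses together with IL6ST, fell from 10.01 and 9.99 FPKM to 4.99 and 6.80 FPKM (log2 fold change -0.69, limma adjusted p = 0.00442). STAT3 fell from 124.96 and 128.83 to 95.84 and 102.53 FPKM (log2 fold change -0.35, limma adjusted p = 0.00244), and its feedback target SOCS3 from 25.04 and 24.56 to 18.50 and 17.93 FPKM (log2 fold change -0.43, limma adjusted p = 0.00213). Other genes of the same signalling axis were not called: the log2 fold change was 0.21 in the kinase gene JAK1 (limma adjusted p = 0.0505), 0.25 in IL11RA, 0.01 in IL6R and -0.09 in OSMR. TNFSF12, the ligand TWEAK of TNFRSF12A, was called higher by 0.32 (limma adjusted p = 0.0420), and is uncertain because a readthrough transcript overlaps it. Its call was also lost in 8 of 12 alternatives, among them all 4 scalings (0.136 under the median of ratios), no filter (0.138) and the fits without Control replicate 2 or siSIRT1 replicate 1. The chemokine receptors CX3CR1, CXCR4 and CXCR6 were at or below 0.07 FPKM in every library, and CXCR2 was between 0.92 and 0.99 FPKM. CCR6, the receptor of CCL20, was at 4.32 and 4.65 FPKM in Control, against 3.38 and 3.46 FPKM in siSIRT1, and was not called (log2 fold change -0.31, limma adjusted p = 0.0656), although it passed under the median of ratios (-0.38, 0.0299) and 3 other alternatives.

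Of 8 genes that set or read RELA acetylation, 3 were called (37.5%), about the 37.1% of all genes, and 1 of these was the siRNA target: SIRT1 itself fell and the deacetylases HDAC1 and HDAC3 rose. HDAC1 went from 75.42 and 79.75 FPKM to 107.42 and 101.93 FPKM (log2 fold change 0.43, limma adjusted p = 0.00102), and HDAC3 from 23.52 and 24.33 to 31.10 and 30.64 FPKM (log2 fold change 0.35, limma adjusted p = 0.00391). The acetyltransferases EP300 and CREBBP were not called, with log2 fold changes of -0.04 and 0.07.

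Markers of other cell types and of the interferon response were measured beside these results. The 6 epithelial markers summed higher in siSIRT1, to 5070 and 4680 FPKM against 4200 and 3980 FPKM, nearly all of it KRT8, KRT18 and KRT19. EPCAM (log2 fold change 0.52), KRT8 (0.25), KRT7 (-0.10) and CDH1 (-0.22) were not called. KRT18 and KRT19 were called higher (log2 fold changes 0.26 and 0.25). Both calls were lost with no filter (limma adjusted p = 0.115 and 0.0601) and under median-of-ratios or upper-quartile scaling. They were also lost without the variance trend and without either Control library. The 6 immune markers in the tables summed to 69.8 and 68.3 FPKM in Control, compared with 48.9 and 44.6 FPKM in siSIRT1, nearly all of it CD68, a lysosomal gene. PTPRC, the pan-leukocyte marker, was at 0.97 to 1.29 FPKM. ITGAM, on the same list but below the filter, went against the sum. It stood at 0.12 and 0.15 FPKM in Control against 0.74 and 1.09 FPKM in siSIRT1, about 5 and 6 reads against 30 and 46. Endothelial markers summed to under 1 FPKM in each library. Summed interferon response genes were higher in siSIRT1, at 123 and 108 FPKM against 89.8 and 83.0 FPKM. ISG15 alone rose by more than the sum did, from 55.80 and 48.65 FPKM to 95.07 and 78.23 FPKM. The other interferon response genes together were therefore lower in siSIRT1. IFIH1 also rose, from 2.20 and 2.47 to 3.54 and 4.15 FPKM (log2 fold change 0.54, limma adjusted p = 0.0122). IFIT2 and IFIT1 fell, and IFNB1 was at 0 in 3 of the libraries. The IFIH1 and IFIT1 calls were lost without Control replicate 1. The part of these genes in the changes of the members was not tested.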

How the data were processed

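The 4 libraries of PANC-1 cells were sequenced as total RNA. For each library the authors deposited a table of FPKM values, rounded to 2 decimals for 16878 genes, with isoforms pooled into the gene. The submitters' processing notes name Bowtie2, HISAT, RSEM and ChIPseeker without roles, and the genome build used for the RNA-seq is not given in the sources used here, nor is the treatment of strand or of reads shared by overlapping genes. FPKM scales each library to its own total, so strongly changed abundant genes can shift all others. Symbols were checked against RefSeq by Entrez identifier, which matched 16846 genes. Coordinates of genes are GENCODE release 44 mapped to GRCh37.

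Genes whose mean reached 1 FPKM or more were tested on log2(FPKM + 1) with limma 3.58.1 in R 4.3.3 (lmFit, eBayes with a mean-variance trend, two-sided p, Benjamini-Hochberg over 12191 genes). Members and lists were chosen with earlier results of these data known. Every member was named, with the 5 called genes of largest change in each list of further genes. Alternatives were a pseudocount of 0.1, no filter, quantile, median-of-ratios and upper-quartile scaling, equal FPKM sums, the replicate number as a block, eBayes without the trend, and leaving out each library, where the lone library is assumed to vary like the other group. Depth was estimated from steps of 1 read in 401 single-exon genes, with a length offset of 80 bases, and gave 9110000 and 9030000 reads in Control and 8700000 and 9110000 in siSIRT1. The step scores were 0.466 to 0.649 against at most 0.279 for jittered values. Reads per gene were derived from depth and canonical length, are approximate, and carry counting error only. Tested on simulated data for this comparison (12121 genes, 200 changed), the fit called 69.7% of genes changed 1.5-fold, 94% of those changed 2-fold and 100% of those changed 4-fold, with 5% false calls. The simulation changed few genes, set the noise by level alone and held no shift between libraries, so these rates need not hold for the data.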

Additional observations from a re-analysis of the deposited data

How the results depend on the processing

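The 10 falls among the members, the SIRT1 knockdown and 6 rises kept direction and call in all 12 alternatives. The count of called members was 22 to 26 in the alternatives with all libraries (24 as reported), and 18 to 23 with 1 library left out. Without Control replicate 1 or Control replicate 2 the members called higher numbered 8 and 9 in place of 14, the further pathway genes called 5 and 4 in place of 10, and all genes called 2744 and 2691 in place of 4521, and the test then has fewer libraries. Over the 4 fits that leave out 1 library, the ranges were 8 to 12 members called higher, 4 to 9 pathway genes called and 2691 to 4608 genes called. The further target genes called changed from 5 to 3 with no filter and to 8 with equal FPKM sums or with the replicate block, and the cause was not tested. Members with small changes turned in sign without reaching the threshold: under quantile, median-of-ratios, upper-quartile and equal-sum scaling, RELA was at -0.05, -0.04, -0.04 and -0.02, NFKBIA at -0.04, -0.04, -0.03 and -0.01, CXCL2 at -0.03, -0.04, -0.03 and -0.02, and IL6ST at -0.02, -0.04, -0.03 and -0.01. Leaving out 1 library gave -0.01 to 0.10 for RELA, -0.04 to 0.24 for REL, -0.09 to 0.18 for NFKBIA, -0.29 to 0.33 for CXCL2 and -0.26 to 0.35 for IL6ST, whose adjusted p was 0.0420 at the lower end and 0.0159 at the upper. NFKBIB reached the threshold without siSIRT1 replicate 2 (0.17, adjusted p = 0.0432). The labels share only replicate numbers across the groups. The deviations of same-numbered libraries correlated at 0.123, which with 2 pairs does not establish a pairing, and with the replicate block 5393 genes and 26 members were called, CHUK (adjusted p = 0.0499) and TNFRSF12A (0.0150) being gained. Depth limits CXCL2, CXCL3, CXCL5, CXCL8, CCL20, IL1A, IL1B, IL6 and PTGS2, which rest on under 30 reads per library.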
